A study of Mus musculus with 4 samples.

Results

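Interferon-stimulated genes were followed as a set of 33 named genes in open chromatin of SMARTA CD4 T cells. Peaks of the 4 libraries that overlapped by at least 1 bp were merged into 97394 regions, and a region belonged to the set when the nearest interval of a protein-coding RefSeq gene (GRCm38), within 100 kb of the region's midpoint, was one of the 33. This gave 115 regions at 30 of the genes, and Ifit1, Ifit3 and Oasl1 had none. The assay was ATAC-seq, which marks accessible DNA by letting a transposase insert sequencing adapters into it. All SMARTA donors share a transgenic receptor specific for GP61, a peptide used as a model antigen in B16-GP61 melanoma cells. Naive donor cells, WT and KO with different congenic marks, were moved into mice bearing this tumor and treated with cytoxan, a drug that depletes lymphocytes. They were recovered 11 days later from tumor-draining lymph nodes (tdLN). The WT group (2 libraries, WT-1 and WT-2) was TOX WT, gated on CD4+, Ly5.1+, Ly5.2+ and the hi levels of PD1, LAG3 and CD39. The KO group (2 libraries, KO-1 and KO-2) was TOX KO, gated on CD4+, Ly5.1+, Ly5.2- and the lo levels of the same 3 proteins. Genotype, sort gate and congenic marker differ together, so their parts in any difference cannot be told apart. The labels give neither the deletion nor the donors' age, and do not say whether the 2 libraries of a group came from separate animals.

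Type I interferon binds the receptor pair Ifnar1 and Ifnar2 and activates the kinases Jak1 and Tyk2. STAT2 then acts with IRF9 in a complex that binds the interferon-stimulated response element (ISRE) in promoters, and IRF7 extends the response by driving more interferon. The induced genes encode sensors of foreign nucleic acid, antiviral effectors, antigen presentation factors and brakes such as USP18. T cells carry the receptor and can switch on this program.

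The lists held 56852 and 61489 peaks in WT and 43078 and 61773 in KO. KO-1 had the shortest list and the lowest median fold enrichment, 3.67 against 3.93 to 4.19 in the other libraries. Depth is unknown because the sources used here give no read numbers, and a missing peak can be a weak one. Numbers were also missing from the peak names of each list (1603 to 1900 per library, 231 to 256 of them among the strongest peaks, the top 10%), so an absent peak can be one that was removed. Each peak's fold enrichment over local background is the authors' value. It is given below beside its list percentile, the rank of that fold within the library's own list from 0 (weakest) to 100. Where 2 values follow a genotype, the first belongs to library 1 and the second to library 2, and 4 values without a name follow the order WT-1, WT-2, KO-1, KO-2. Ranks from lists of different lengths show no change between libraries and only place a peak within its library.

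The sequences just upstream of 6 members carry the element through which the complex of STAT2 and IRF9 is known to act, and they are shown as the members with the most matches to it, then the highest start peak. The peaks over them ranged from among the strongest of a list to none. They are from RefSeq tables on GRCm38.p6, written 5′ to 3′ along the gene, and end at the base before the gene interval except for Ifit3. Capitals mark each match, on either strand, to the ISRE core, which is GAAA, then any 2 bases, then GAAA again. The intervals are chr4:156200819-156201068, minus strand for Isg15, chr8:71537473-71537722, minus strand for Bst2, chr19:34640639-34640888, plus strand for Ifit1, chr3:142559794-142560015, plus strand for Gbp3 and chr10:128270248-128270497, plus strand for Stat2. For Ifit3 the listed start lies inside the gene interval, and 30 bases around each match are shown (chr19:34583363-34583392, plus strand, and chr19:34583397-34583426, plus strand).
Isg15: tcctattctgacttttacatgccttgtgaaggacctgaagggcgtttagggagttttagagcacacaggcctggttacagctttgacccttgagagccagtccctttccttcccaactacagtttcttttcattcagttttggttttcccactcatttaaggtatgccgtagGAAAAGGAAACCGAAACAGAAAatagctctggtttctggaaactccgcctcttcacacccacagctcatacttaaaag
Bst2: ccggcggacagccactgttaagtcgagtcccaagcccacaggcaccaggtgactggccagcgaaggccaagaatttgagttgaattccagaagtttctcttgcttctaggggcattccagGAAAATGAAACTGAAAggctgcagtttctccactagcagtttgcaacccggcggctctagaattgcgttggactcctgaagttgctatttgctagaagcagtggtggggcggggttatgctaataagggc
Ifit1: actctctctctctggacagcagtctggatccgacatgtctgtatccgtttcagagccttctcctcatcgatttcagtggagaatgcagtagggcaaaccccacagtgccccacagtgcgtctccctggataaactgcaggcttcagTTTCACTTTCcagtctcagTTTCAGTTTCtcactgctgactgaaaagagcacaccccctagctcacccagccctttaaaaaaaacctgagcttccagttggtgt
Gbp3: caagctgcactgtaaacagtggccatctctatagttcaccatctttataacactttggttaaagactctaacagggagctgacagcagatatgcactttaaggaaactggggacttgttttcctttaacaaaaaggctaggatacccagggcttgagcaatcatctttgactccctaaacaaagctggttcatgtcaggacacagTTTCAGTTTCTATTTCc
Stat2: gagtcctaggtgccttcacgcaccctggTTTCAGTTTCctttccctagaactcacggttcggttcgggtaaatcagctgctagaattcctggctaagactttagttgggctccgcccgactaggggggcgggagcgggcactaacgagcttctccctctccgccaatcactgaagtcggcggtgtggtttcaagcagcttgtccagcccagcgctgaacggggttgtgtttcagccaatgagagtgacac
Ifit3, first match: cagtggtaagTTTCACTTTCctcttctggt
Ifit3, second match: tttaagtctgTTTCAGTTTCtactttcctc

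The starts of most interferon-stimulated genes were open in both genotypes. A start was judged open in a library when a peak overlapped the window from 250 bases before to 50 bases after a RefSeq start of the gene (27 members), or, for the 6 members without such a window in the tables used here, when a peak lay within 1 kb of either gene end. By this measure 29 of the 33 starts were open in every library, and the numbers per library were 29 and 30 in WT and 29 and 29 in KO. Among members with a start window 24 of 27 were open in every library, against 49.2% of the 17274 protein-coding genes with such a window. Among those judged by their ends 5 of 6 were, against 47.5% of 4357 genes. With stricter peaks (deposited −log10 q of at least 10), 25 of the 33 starts remained open in every library. The share of all genes at this threshold is not given here. The peaks were placed somewhat lower in the lists than those of other open starts. For the 24 members the median list percentile was 86.9 and 84.6 in WT and 81.8 and 85.0 in KO, and for all 8491 genes open in every library it was 90.9, 91.7, 88.0 and 90.6.

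**Figure D1:**
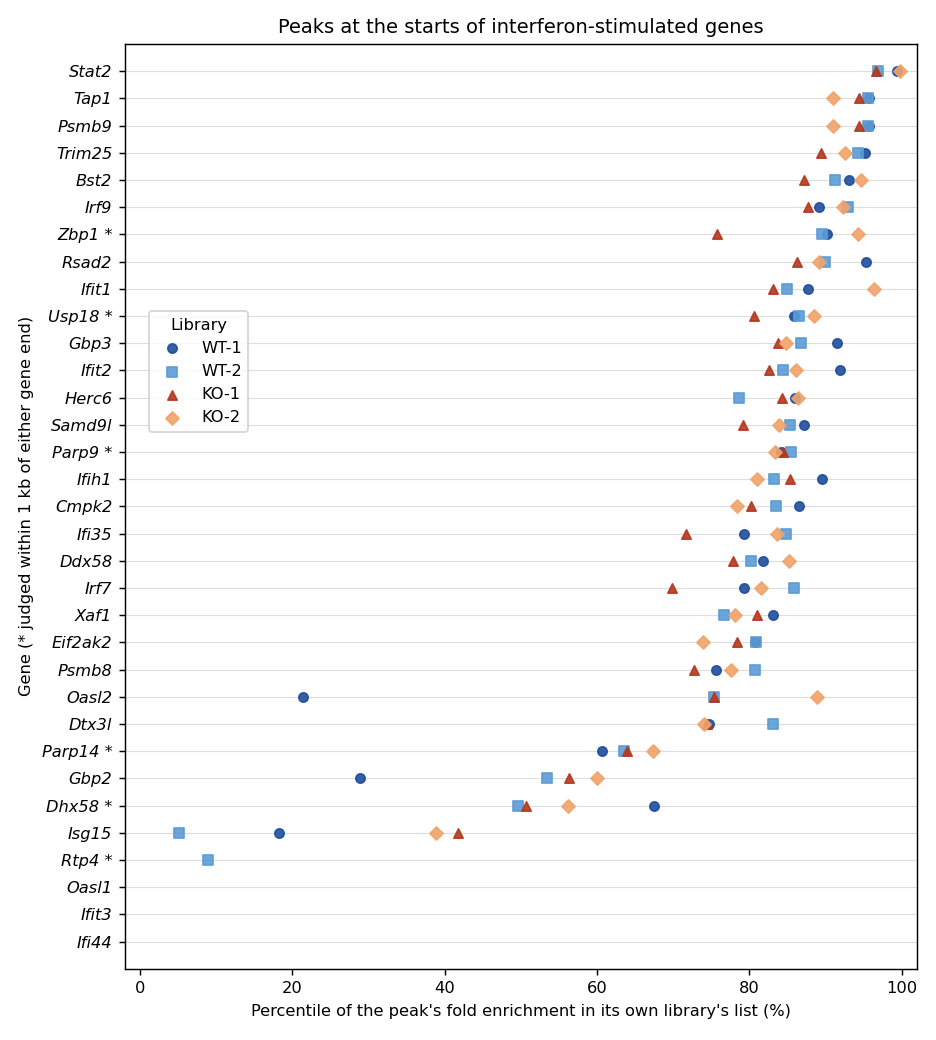
List percentile (%, horizontal axis) of the strongest peak over the start of each of the 33 genes (vertical axis), one symbol per library, sorted by the median. Most genes lie above 70 in all 4 libraries, Isg15 lies between 5.04 and 41.7, and Ifit3, Oasl1 and Ifi44 have no symbol because no library had a peak there.

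The starts of the 3 genes that carry the interferon signal were open in every library, at different strengths. Stat2, the DNA-binding partner specific to the type I pathway, had fold enrichments of 18.2 and 15.6 in WT and 12.0 and 21.5 in KO, at list percentiles of 99.4, 96.9, 96.7 and 99.7. This was the highest start of the set, and the 2 genotypes overlapped. The region (chromosome 10, 128270071 to 128271123) covers the start of Stat2 and also lies inside the interval of Apof. Irf9, its partner in the complex, had fold enrichments of 11.4, 13.3, 9.01 and 14.2 in the order WT, then KO, again with overlapping genotypes. Irf7 had 2 regions in every library, and its start peak stood at list percentiles of 79.3 and 85.9 in WT and 69.8 and 81.5 in KO. Of the 9 regions at these 3 genes, 4 had a peak in every library and 5 in 1 library alone.

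Sensors of viral nucleic acid were open in every library. Ddx58, which encodes the RNA sensor RIG-I, had start peaks of 8.68-fold and 7.97-fold in WT and 6.67-fold and 11.1-fold in KO. Ifih1, the gene of the long double-stranded RNA sensor MDA5, had 11.6, 8.89, 8.35 and 9.55-fold, and 4 of its 7 regions had a peak in all 4 libraries. Zbp1, a sensor of Z-form nucleic acid that can start cell death, had 11.9, 11.6, 6.26 and 15.2-fold, with both the lowest and the highest value in KO libraries. Dhx58, the regulator LGP2 of this family, was lower, at 5.72, 3.87, 3.73 and 4.78-fold. In WT-2 and KO-2 the strongest peak of the same region (6.47-fold and 4.83-fold) lay beyond 1 kb of the gene ends.

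Among the antiviral effectors the start peaks covered the whole range. Trim25, a ubiquitin ligase that acts on RIG-I, had 14.3-fold and 13.9 in WT and 9.52 and 14.3 in KO. Bst2, the tetherin that holds virus particles on the cell surface, had 13.2, 12.3, 8.89 and 15.4-fold, and Rsad2, the radical enzyme viperin, had 14.4, 11.8, 8.61 and 12.7-fold. In these 3 genes KO-1 was the lowest library and KO-2 lay above or among the WT values. The starts of Ifi35, Xaf1, Cmpk2, Herc6, Samd9l and Eif2ak2 (the kinase PKR, which blocks translation on double-stranded RNA) were open in every library at list percentiles from 71.7 to 87.2.

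Isg15 stood apart among the open starts. It encodes a ubiquitin-like protein that is attached to other proteins during the response. Its only region (chromosome 4, 156200727 to 156201025) was 299 bp wide and had fold enrichments of 2.82 and 2.52 in WT and 3.29 and 3.62 in KO. The list percentiles were 18.2, 5.04, 41.7 and 38.8, all below the middle of their lists. The upstream sequence printed above holds 3 overlapping ISRE core matches, the most of any member. Oasl2, an antiviral relative of the oligoadenylate synthetases, had start peaks at list percentiles of 75.3 in WT-2, 75.4 in KO-1 and 88.8 in KO-2. In WT-1 a weaker peak (21.4) overlapped its start window, while the strongest WT-1 peak of the same region stood at 76.7.

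The Ifit genes, whose proteins bind foreign RNA and block its translation, differed from each other although they lie side by side on chromosome 19. Ifit2 had a start peak of 12.7-fold and 9.32 in WT and 7.67 and 11.4 in KO. Ifit1 had one of 10.8, 9.49, 7.81 and 16.6-fold, but its region (34640518 to 34641129) has its midpoint inside the intervals of Ifit1bl1 and Ifit1bl2 and was therefore not counted among the 115. Ifit3 had no peak at its start and no region in any library, although 2 ISRE core matches lie upstream of its start. Of the 251 stretches of read length (50 bases) in its start window, 120 (47.8%) also occur in the window of its copy Ifit3b, which had no region either. In the Ifit1 window 78.1% of the stretches recur in a window of Ifit1bl2, but there the windows overlap at the same place on the chromosome. The handling of reads that map to several places is not given, and its part in the missing peaks was not tested. Oasl1 had no region either, and none of its stretches recurs in another gene's window. Ifi44 had no start peak, and its 2 regions, each in 1 library, lay 33347 and 91870 bp from the gene.

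At the 2 ends of its long interval (chromosome 16, 23520219 to 23614222) Rtp4, a receptor transporter gene, had a peak in WT-2 alone (list percentile 8.92). The region of that peak also lies inside the interval of Masp1. A region inside the interval (chromosome 16, 23609559 to 23610384) had a peak in every library at list percentiles from 70.6 to 80.4. The position of the Rtp4 start is not known here, so whether this region covers it was not tested. Parp14 and the paired genes Parp9 and Dtx3l, which encode ADP-ribosyltransferase family members and a ubiquitin ligase partner, were open in every library. The ends of Parp14 stood between 60.7 and 67.4. Parp9 and Dtx3l share 1 region over both gene ends (chromosome 16, 35938481 to 35939257). Parp9 had a second region at this end (35939311 to 35940114), with the stronger peak in every library, at 9.45, 9.71, 8.12 and 10.3-fold.

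Genes of antigen presentation were open at their starts in all 4 libraries. Tap1, a subunit of the pump that carries peptides to MHC class I, and Psmb9, a subunit of the immunoproteasome, lie head to head on chromosome 17 and share 1 peak. Its fold enrichment was 14.7 and 14.7 in WT and 11.1 and 13.6 in KO, and its region (34186900 to 34188152) was counted for Tap1 as the nearer gene. Psmb8, another immunoproteasome subunit, had 7.11, 8.12, 5.74 and 8.45-fold. Of the guanylate-binding proteins, GTPases that attack the membranes around pathogens, Gbp3 had 12.5, 10.3, 7.98 and 10.9-fold and Gbp2 had 3.10, 4.12, 4.06 and 5.17-fold. At Gbp2 the lowest value was in WT-1 and the highest in KO-2.

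The core was found, on either strand, in 11 of the 30 member windows (36.7%) and in 3.46% of all 32619 windows of the same 300 bases. The longer form, the core followed by CT and so always overlapping a core match, was found in 6 member windows (20.0%) and in 0.273% of all windows. The element of interferon gamma signalling, TTCNNNGAA, which reads the same on both strands, was found in 5 (16.7%) against 8.34%. Members were chosen as interferon-stimulated genes, so the share of the core describes the list and not these cells. The start was open in every library at 10 of 11 members with a core match and at 14 of 16 without one. The 17 core matches lay on either side of the start, 14 of them entirely upstream.

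Summits lay near the starts and, in most cases, near the matches, but this nearness was partly set by the choice of peaks. Start peaks had to overlap the window, and matches were searched only in that window. No distances at other genes stand beside those below, which only give positions. Of 96 start peak summits (24 members in 4 libraries), 64 were within 100 bp of the start, and the median position was 6 bp upstream. At the 9 members with a core match in a window covered by peaks, the summit lay a median of 47.0 bp from the nearest match, and in 29 of 36 cases within 100 bp. At Ifit1 the summits were 4 bp from the centre of the upstream match in both WT libraries, and 17 and 10 bp from it in KO-1 and KO-2. At Stat2 the single match lies further upstream, 139 to 211 bp from the summits. At Gbp3 no peak reached the window with the matches, and the open region began after it (chromosome 3, 142560108 to 142561395), over another listed start of the gene.

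**Figure D2:**
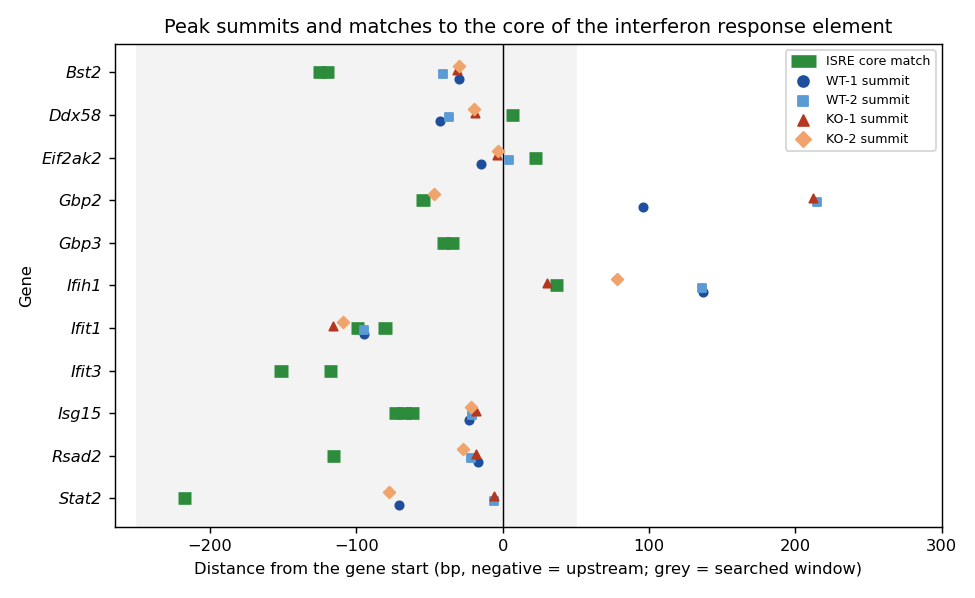
Positions of ISRE core matches (green) and of the summit of the strongest peak over the window in each library (symbols) for the 11 genes with a match, in bp from the gene start (horizontal axis, negative is upstream; grey is the searched window). The summits of the 4 libraries lie within 11 bp of each other at Isg15, Bst2 and Rsad2, and Ifit3 and Gbp3 have no symbol because no peak covered the window.

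Across the set, 12 regions at 10 of the genes were WT-only, with a peak in WT-1 and WT-2 but no peak in the KO libraries, and 2 regions at 2 genes showed the reverse pattern (KO-only). The WT-only regions were 10.4% of the 115, against 8.80% of all 97394 regions, and the KO-only regions 1.74%, against 1.78%, so both shares stood near the background. Counted by gene, 12 of the 30 members with a region had a genotype-specific one, against 30.9% of the 16663 genes with a region. For WT-only regions this was 10 members against 26.7%, and for KO-only regions 2 members against 7.49%. A further 40 member regions (34.8%, against 27.6%) had a peak in every library. The count of WT-only regions moved with the libraries used. It was 28 of 108 member regions without WT-1, 21 of 103 without WT-2 and 23 of 104 without KO-2. Among peaks with a −log10 q of at least 10 it was 6 of 58. The KO-only count was 7 of 103 without WT-2, 15 of 112 without KO-1 and 6 of 104 without KO-2. With all lists cut to 43078 peaks it was 6 of 87, and 9 regions were WT-only. Genes with a specific region numbered 20 without WT-1, 19 without WT-2, 18 without KO-1 and 17 without KO-2. Leaving out a library loosens both definitions. The shares of all regions and genes at these settings are not given here, so these counts only show how the numbers move. In bulk libraries, fewer cells of a type and a change within those cells cannot be told apart.

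**Figure D3:**
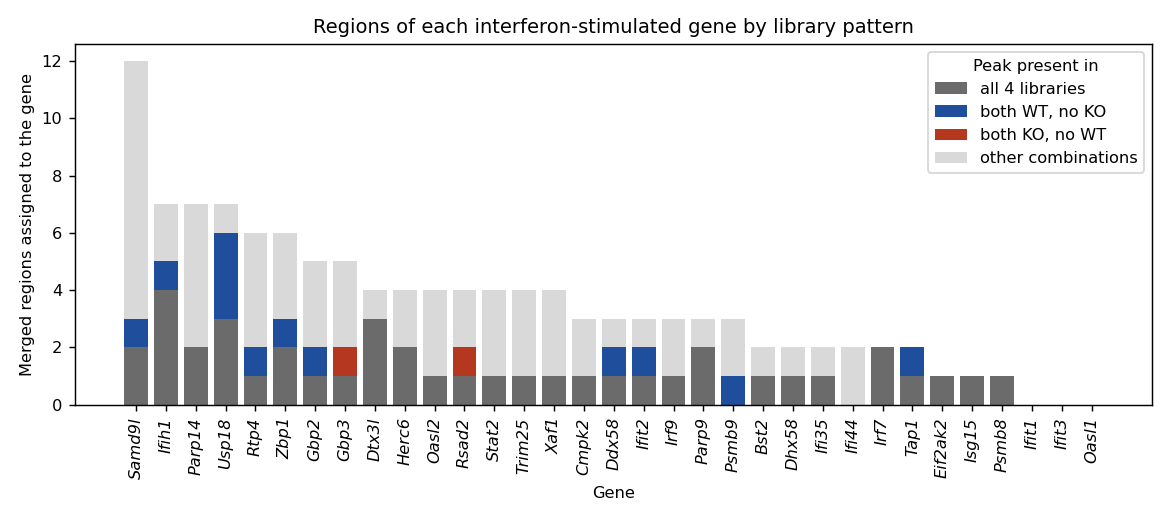
Number of merged regions assigned to each of the 33 genes (vertical axis), split by the libraries that held a peak. Samd9l has the most regions, 12, Usp18 has 3 WT-only regions, and the KO-only regions stand at Gbp3 and Rsad2; the region tied between Dtx3l and Parp9 is drawn for Dtx3l and for Parp9.

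Usp18, which removes ISG15 from proteins and blocks the interferon receptor, held 3 of the 12 WT-only regions. They lay on chromosome 6 at 121238246 to 121238679, 121245189 to 121245475 and 121261355 to 121261511. Their fold enrichments were 2.90, 3.30 and 2.75 in WT-1 and 3.11, 2.52 and 2.54 in WT-2, all in the weaker part of each list. The second lay 52 bp and the third 473 bp from a region open in every library. The strongest Usp18 region was shared by the 4 libraries and lay 1485 bp outside the gene (121271932 to 121272872), at 14.4-fold and 13.5 in WT and 7.95 and 14.9 in KO.

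The highest WT-only regions lay inside the intervals of Ifih1 and Rtp4. The one in Ifih1 (chromosome 2, 62618940 to 62619353) had 6.57-fold in WT-1 and 3.67-fold in WT-2. The one in Rtp4 (chromosome 16, 23557250 to 23557656) had 5.20-fold and 6.50-fold, at list percentiles of 63.1 and 73.8. It lay 51902 bp from the nearest region open in every library. Ddx58 had a WT-only region 4519 bp upstream of its start (chromosome 4, 40244126 to 40244563) with 4.10-fold and 4.96-fold. Each of these was of middle strength in its list, and neither KO library had a peak there.

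The other WT-only regions were weaker or stood beside regions open in all libraries. Tap1 (chromosome 17, 34196520 to 34197121) had 3.54-fold in WT-1 and 4.78-fold in WT-2, 197 bp from the shared region at the start of Psmb8. Zbp1 (chromosome 2, 173219749 to 173219973) had 4.27 and 3.22-fold, 46 bp from the shared region at its gene end. Psmb9 (chromosome 17, 34180497 to 34181204) had 4.01 and 3.78-fold, and Ifit2 (chromosome 19, 34569810 to 34570398) had 3.21 and 4.52-fold. Gbp2 (chromosome 3, 142640176 to 142640404) had 3.36 and 3.11-fold, and Samd9l (chromosome 6, 3372380 to 3372729) had 2.75 and 2.67-fold. In all, 4 of the 12 WT-only regions lay within 1 kb of a shared region, against 9.22% of all WT-only regions, and 6 lay inside a gene interval. Exons, introns and UTRs were not used here.

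The 2 KO-only regions lay outside their genes. The one near Rsad2 (chromosome 12, 26439277 to 26439720) lay 3245 bp from the end of the gene away from its start, with 3.60-fold in KO-1 and 6.63-fold in KO-2. The one near Gbp3 (chromosome 3, 142583747 to 142584085) lay 10703 bp from the gene, with 2.95-fold and 3.39-fold. With a limit of 10 kb to the gene the Gbp3 region is not counted.

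Most of the remaining member regions were seen in a single library or missed a single one. There were 41 member regions with a peak in 1 library alone, 8 and 16 in WT and 4 and 13 in KO. Of all 97394 regions, 8726 and 12671 had a peak in 1 WT library alone and 7478 and 18296 in 1 KO library alone. Together this was a larger share than among the 115 member regions. Another 16 member regions had a peak in 3 libraries, and of these 11 lacked it in KO-1 and 5 in WT-1. Over all regions with a peak in 3 libraries, 64.6% lacked it in KO-1 and 17.5% in WT-1. Among these, the Gbp2 region inside the gene (chromosome 3, 142621159 to 142621523) had peaks at list percentiles of 75.3 in WT-1, 69.1 in WT-2 and 72.4 in KO-2 and none in KO-1. The Trim25 region at chromosome 11, 89023968 to 89024662, stood at 84.4 and 84.1 in the WT libraries and 52.3 in KO-2. Of those without a WT-1 peak, the Ifih1 region at chromosome 2, 62648624 to 62648984, stood at 0.571 in WT-2 and 60.5 and 57.8 in KO. The Gbp2 region at chromosome 3, 142650136 to 142650538, stood at 8.92 in WT-2 and 48.5 and 59.3 in KO. The part of the short KO-1 list in the KO-1 absences was not tested.

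Regions open in every library were compared by their rank among the 26867 regions shared by the 4 libraries, so that each library ranked the same set. Of the 40 shared member regions, 7 had both WT ranks above both KO ranks, against 24.0% of all shared regions, and 7 had the reverse, against 22.0%. In the other 26 the genotypes overlapped. The median rank of the 40 was 61.5 and 58.8 in WT and 60.0 and 56.2 in KO, that is 60.1 ± 1.91 in WT and 58.1 ± 2.70 in KO (SD, n = 2 each). The difference of 2.07 was larger than the WT SD and smaller than the KO SD, each taken from 2 libraries. The counts depend on the libraries. Those with WT above KO were 15 without WT-1, 16 without WT-2, 21 without KO-1 and 15 without KO-2, and those with KO above WT were 13, 9, 15 and 13. As percentiles of the whole lists the counts were 10 and 4, but those lists differ in length and their ranks show no change between libraries. The shares over all shared regions at these settings are not given here. These counts therefore only show that the numbers depend on the setting.

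The 7 regions ranked higher in WT stood at Samd9l (2), Irf7 (2), Dhx58, Trim25 and Usp18. The widest difference was at a region 26022 bp from Samd9l (chromosome 6, 3345893 to 3346577), which ranked 78.6 and 67.8 in WT and 53.6 and 36.3 in KO. Dhx58 (chromosome 11, 100702402 to 100704375) ranked 40.1 and 45.6 in WT and 26.5 and 16.5 in KO. At the start of Irf7 the ranks were 58.7 and 68.7 in WT and 52.3 and 57.9 in KO, so WT-1 and KO-2 nearly met. The 7 ranked higher in KO stood at Dtx3l (2), Oasl2, Gbp2, Isg15, Rtp4 and Ddx58. Oasl2 ranked 54.3 and 48.6 in WT and 60.7 and 74.4 in KO. Gbp2 ranked 6.34 and 19.3 in WT and 33.5 and 20.4 in KO, and Isg15 3.21 and 1.21 in WT and 17.8 and 5.70 in KO. This Gbp2 region ends at 142621079, just before a separate Gbp2 region that begins at 142621159. The latter had 7.03, 5.70 and 7.19-fold in WT-1, WT-2 and KO-2 and no peak in KO-1. The signalling genes Stat2 and Irf9 overlapped between genotypes.

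**Figure D4:**
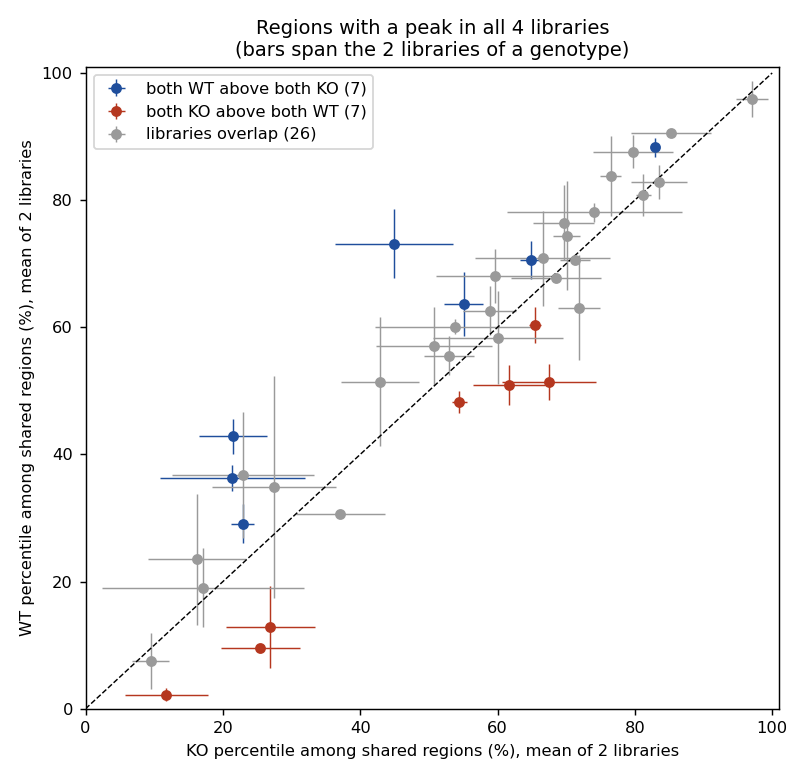
Mean percentile of each of the 40 member regions open in every library among all shared regions, WT (vertical axis, %) against KO (horizontal axis, %), with bars that span the 2 libraries of a genotype and a dashed line of equality. In 26 regions (grey) the libraries overlap, and 7 have both WT libraries above both KO libraries and 7 the reverse.

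As a share of all regions with a peak in a library, member regions made up 0.142% and 0.143% in WT and 0.128% and 0.128% in KO. The means were 0.142% ± 0.00115 in WT and 0.128% ± 0.000323 in KO (SD, n = 2 each). The 2 WT libraries lay above the 2 KO libraries, but not with lists of equal length, where the shares were 0.155% and 0.156% in WT and 0.128% and 0.159% in KO, and the order turned with stricter peaks. At a −log10 q of at least 5 the shares were 0.157% and 0.159% in WT and 0.169% and 0.170% in KO, and at 10 or more 0.169% and 0.169% against 0.181% and 0.184%. Since the genes were chosen with results of these data known, no p is given for a score over them, and a test of 2 libraries against 2 could not go below an exact two-sided permutation p of 0.333.

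A wider list of 86 other interferon genes was examined in the same way. Of these 84 were found among protein-coding genes (Mx1 and Mx2 were not), and they held 536 regions. WT-only regions numbered 54 (10.1%, against 8.80% of all regions) and KO-only regions 17 (3.17%, against 1.78%). They lay at 28 and 13 of the 80 genes with a region, against 26.7% and 7.49% of all such genes. Of the 84 starts, 65 were open in every library, against 49.2% of genes with a start window and 47.5% of those judged by their ends. Of 48 regions at the receptors, 7 were WT-only (14.6%) and 1 was KO-only (2.08%), and of 162 at kinases and transcription factors of the pathway 22 (13.6%) and 9 (5.56%) were. The 53 further interferon-induced genes had 13 and 7 of 236 (5.51% and 2.97%). Irf2, a repressor of interferon-induced transcription, held 37 regions, of which 8 were WT-only and 2 KO-only. Irf8, a factor of B cells and dendritic cells, had 6 and 0 of 25. Ifng, Ifnar2 and Socs3, a brake on cytokine signalling, each held 3 regions of the WT-only kind and none of the reverse. In all, WT-only regions outnumbered the reverse kind at 25 genes of the list, were outnumbered at 7 and were equal in number at 2. The same count over all genes is not given here. Of all genes with a region, 26.7% had a WT-only region and 7.49% a KO-only one. WT-only regions were thus the commoner kind over all genes too. Jak1, a kinase of the receptor, held 38 regions, the most of the list, of which 2 were WT-only and 4 KO-only, and the other 6 with more KO-only regions (Stat3, Gbp6, Phf11b, Ube2l6, Nlrc5 and Epsti1) held 1 each and no WT-only one.

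The same libraries differed at markers of other cell types. Over all 97394 regions 8.80% were WT-only and 1.78% KO-only. Of the 125 regions at 12 B cell markers, 61 were WT-only (48.8%) and 1 was KO-only, at all 12 and at 1 of the genes. Regions with a peak on this list numbered 95 and 103 in WT and 11 and 19 in KO libraries, and Ms4a1 and Fcer2a were among the genes with none in KO. At myeloid markers 12 of 58 regions were WT-only (20.7%) and 2 KO-only (3.45%). Regions with a peak numbered 38 and 44 in WT and 24 and 34 in KO. Csf1r, Adgre1 and Cd68 had none in KO, while Lyz2 had no region in any library. Dendritic cell markers had 10 (31.2%) and 0 of 32 (27 and 24 regions with a peak in WT, 12 and 14 in KO). Itgax had none in KO, while Xcr1 had no region in any library. T cell markers had 5 (4.63%) and 8 (7.41%) of 108, with 64 and 66 regions in WT and 62 and 85 in KO. Their starts were open in every library at 9 of 10 genes. Over all genes this was 49.2% with a start window and 47.5% when judged by gene ends. Melanocyte markers had 0 and 0 of 22, with 9 and 9 regions in WT and 9 and 17 in KO. Interferon-stimulated genes are used by all of these cells. The part of other cells in the WT-only regions above was not tested.

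**Figure D5:**
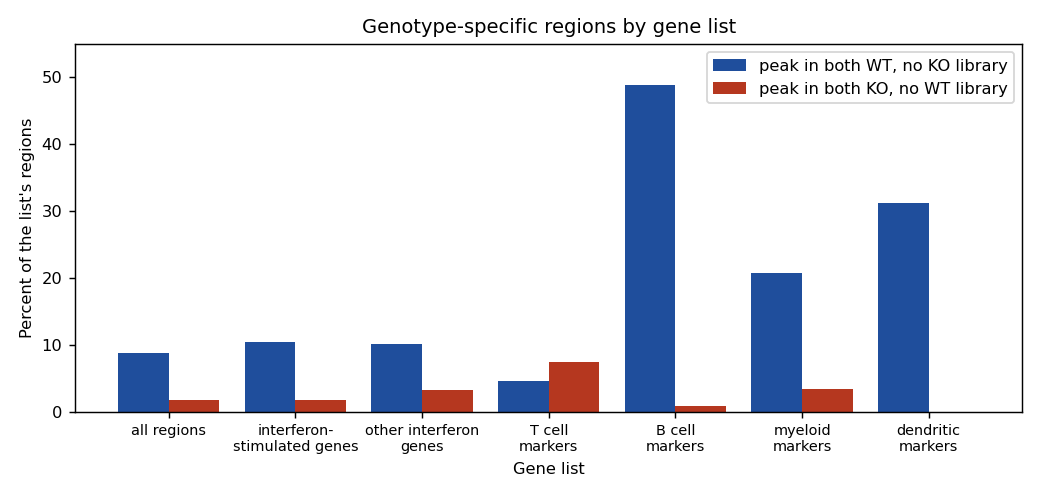
Percent of each gene list's regions (vertical axis) that had a peak in both WT and no KO library (blue) or both KO and no WT library (red). Interferon-stimulated genes (10.4% and 1.74%) lie near all regions (8.80% and 1.78%), while B cell markers reach 48.8% WT-only.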

How the data were processed

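The data were 4 ATAC-seq peak lists, 1 per library (2 WT, 2 KO), grouped by library name. Cells had been frozen after the sort and thawed before transposition, per the labels' protocols, and libraries were read from both ends. The submitters' processing notes name MACS2, BWA, Picard, SAMtools and deepTools and the build GRCm38 (mm10). Settings, filters, transposase offsets and the treatment of multiply mapped reads were not given in the sources. Fold enrichment, as deposited, is a ratio of the peak to background in its library. Values of −log10 q were used as deposited by the authors, all above 2, and those of −log10 p were not used. The deposited score was not used.

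Peaks were merged, assigned to genes and ranked in Python 3.11. The strongest peak stood for a region. A region tied between genes was kept if any was a member (4 regions). Windows of 300 bases, strand and sequence came from RefSeq tables on GRCm38.p6, positions are 1-based, and all 33 members matched by symbol. The merging and ranking were tested on simulated data. The members and lists were chosen with earlier results of these data known. All 33 members could be named, with all their genotype-specific regions; of the wider list, genes with the largest difference between WT-only and KO-only regions, with those tied for the last place left out. Printed sequences were those with most ISRE core matches, then the highest start peak. Member regions in 3 libraries, and the genes of the wider list with more KO-only regions, were chosen after their values were seen. Planned sequences of genotype-specific regions were not printed because no genome was used here. Alternatives covered peak joining, −log10 q thresholds, list length, gene distance, ties, the ranking measure, each library left out and a replicate block.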

Additional observations from a re-analysis of the deposited data

How the results depend on the processing

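Open starts of the genes varied least: 25 to 29 were open in every library over the 11 alternatives, and 29 without any one library. The number of WT-only regions was 6 at a −log10 q of at least 10, and 12 to 28 with one library left out. The KO-only number was 4 with peaks joined by their summits, 1 with an overlap of at least 100 bp, 6 with lists of equal length, 1 within 10 kb of a gene, and 2 to 15 with one library left out. Genes with a specific region numbered 17 to 20 with one library left out. Shared regions ranked higher in WT numbered 15 to 21 and those ranked higher in KO 9 to 15 with one library left out, and the latter were 4 with ranks in the whole lists. The difference of WT minus KO in the share of member regions, 0.0143 percentage points, was −0.0116 at a −log10 q of at least 5 and −0.0138 at 10 or more, and 0.0129 to 0.0162 with one library left out. The difference of the median rank, 2.07, kept its sign in all 8 alternatives, with 0.0949 to 6.69 when one library was left out. Fewer libraries loosen the definitions, and the cause of the other changes was not tested. The shares over all regions and genes at these settings are not given here, so the counts show nothing particular to the members. With the replicate block, in which WT-1 was set against KO-1 and WT-2 against KO-2, these 2 differences were 0.0143 and 2.07 by construction; the labels do not say that equal numbers mark a shared animal or day, and 2 pairs are too few to check the pairing.

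Unknown depth limits what an absent peak shows, most of all in KO-1.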
